A study of Mus musculus with 4 samples.

Results

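Cluster 4 is 1 of 15 numbered groups of single cells from a directed cardiac differentiation of mouse embryonic stem cells, and 52 of the 1197 genes in the authors' deposited table were listed for it. Its members are all the entries that the table gives for that number, 23 genes listed higher and 29 listed lower than in all other cells. The series held 4 libraries made with 10x droplet chemistry, 1 for each group: wild-type and Brm knockout cells at a mesoderm stage, and the same genotypes at a cardiac stage. All 4 carried the genotype BRG1 3XFLAG, a tagged form of the chromatin remodelling ATPase BRG1, and the knockout libraries carried BRM KO in addition. The sources used here do not say whether each line was 1 clone, nor which libraries' cells entered the table, whose name mentions the Brm knockout alone. The table has no column of libraries, so no value below could be split by genotype or stage. None has a replicate or a test between groups.

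Forebrain progenitors are dividing neuroepithelial cells at the front end of the neural tube. Otx2 sets anterior identity there, and the secreted factor Fgf8, made at the anterior neural ridge and at the border of midbrain and hindbrain, patterns the tissue around it. Regional transcription factors then divide the forebrain into telencephalon, thalamus, hypothalamus and eye field.

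The label was set beside marker genes of forebrain-like progenitors. Of these, 7 were in the authors' deposited table (Ccnd2, Fgf8, Dbx1, Fezf2, Otx2, Lhx5 and Sox2), and all 7 were listed higher in cluster 4. Six3, Hesx1, Emx2, Sox1, Sox3 and Pax6 were listed for no cluster, so the name rests on 7 genes. The markers were chosen with these values known, so their count is a description and no check of the label. Of the 7, all but Sox2 were given with the label. Dbx1 has an entry in cluster 4 alone, and 5 other clusters list Ccnd2 as higher. An entry needed an absolute natural log fold change of at least 0.50 and detection in at least 25.1% of cells inside or outside, judged from the smallest values of the authors' deposited table. No unadjusted p-value there is large, so a limit on it may have applied too. Genes without an entry can be expressed in cluster 4 all the same. Depth, cell numbers, cell filters and doublet treatment of the table are unknown, so no counting interval was made.

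Cluster 4 held 8.61% of all cells, a relative size that makes the shares of detecting cells inside and outside the clusters add up for every gene. Folds below compare the mean of cluster 4 with the mean of all other cells, from the authors' deposited table. Among the 23 genes listed higher the fold ran from 1.66 to 2.75, with a median of 1.88. Among the 29 listed lower it ran from 1.66 to 3.96, with a median of 2.11. These counts were 1.92% and 2.42% of the 1197 genes, each of which has an entry in some cluster. Shares of all genes below refer to these 1197. Expression of these genes went into the clustering itself, so they define cluster 4 and their folds are a description.

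**Figure D1:**
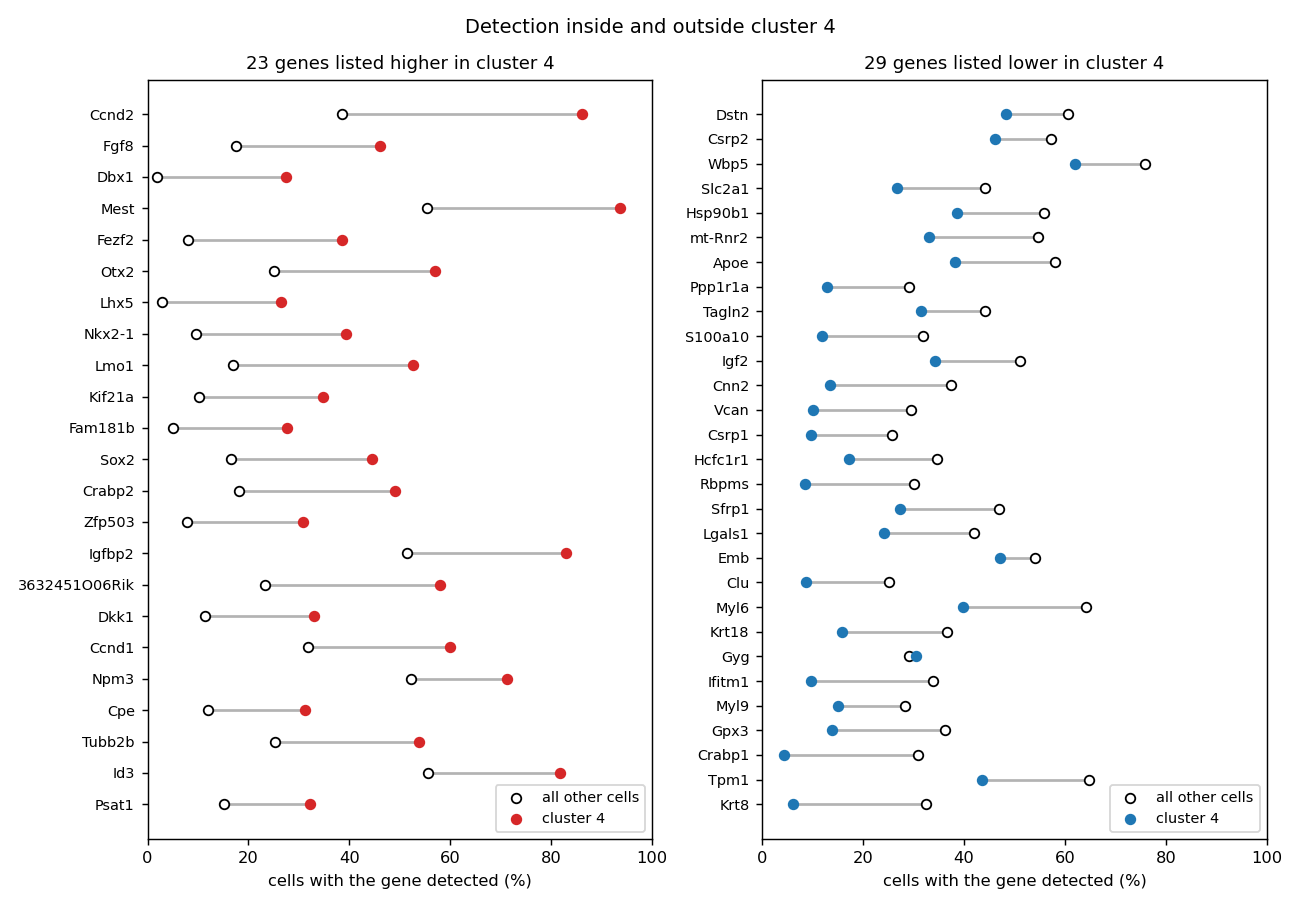
Share of cells (%) with each gene detected in cluster 4 (filled points) and in all other cells (open points), for the 23 genes listed higher (left) and the 29 listed lower (right). Detection was higher inside for all 23 genes on the left, with Ccnd2 at 86.2% against 38.6%, and lower inside for all genes on the right but Gyg, at 30.4% against 29.0%.

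Of 37 forebrain and anterior neural genes, 14 were in the authors' deposited table, 6 of those 14 were listed higher in cluster 4 (42.9%, against 1.92% of all genes) and 0 lower. The 6 were Otx2, Lhx5, Fezf2, Dbx1, Nkx2-1 and Lmo1, with a median natural log fold change of 0.74 against 0.63 over all 23 higher genes. This list was written with the results known, so nothing is read from its share.

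Dbx1, a homeobox gene of progenitor domains in the diencephalon and spinal cord, was the gene most concentrated in cluster 4. It was detected in 27.4% of cells inside and 1.9% outside and was 2.44-fold higher per the authors' deposited table. Of all cells that detected Dbx1, 57.6% lay in cluster 4, a value worked out from the authors' deposited table and the solved size, the largest share among the 52 genes. No other cluster listed it, but with 1.9% outside, a cluster needed detection in about 25.1% of its own cells to do so.

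Lhx5, a LIM homeobox gene of the forebrain, was detected in 26.4% of cells inside and 2.9% outside and was 2.09-fold higher per the authors' deposited table. Of the cells that detected Lhx5, 46.2% lay in cluster 4. Its 1 other entry was cluster 12, the neuron-like cluster, where it was detected in 32.0% of cells per the authors' deposited table.

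Fezf2, a zinc finger gene of the rostral forebrain, was detected in 38.6% of cells inside and 8.1% outside and was 2.31-fold higher per the authors' deposited table. Cluster 4 held 31.0% of the cells with Fezf2. Cluster 1, which shares neural progenitor genes with cluster 4, detected it in 37.5% of cells and cluster 12 in 29.3% per the authors' deposited table. The 12 clusters that did not list it averaged 2.55%. Fezf2 was therefore shared by clusters 1, 4 and 12 and was low in the rest taken as a whole.

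Nkx2-1, a homeobox gene of the hypothalamus and ventral telencephalon that also marks lung and thyroid endoderm, had the same 3 entries. It was detected in 39.4% of cells of cluster 4, 49.7% of cluster 1 and 28.2% of cluster 12 per the authors' deposited table, and the clusters without an entry averaged 2.37%. Of 9 endoderm genes in the table, 0 were listed higher in cluster 4 and 1, Apoe, was listed lower. Lmo1, a LIM-only cofactor gene, was detected in 52.7%, 68.7% and 48.5% of cells of clusters 4, 1 and 12 per the authors' deposited table. Its level was 1.54-fold higher in cluster 1 than in cluster 4.

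Otx2 was the least particular of the 6 by detection. It was detected in 57.0% of cells of cluster 4 and 25.1% of other cells and was 2.09-fold higher per the authors' deposited table. Cluster 4 held 17.6% of the cells with Otx2. Cluster 4 was the one cluster that listed it higher, and clusters 2, 5, 9, 10 and 14 listed it lower, with detection from 0.3% to 9.0% per the authors' deposited table. The 9 clusters that did not list it averaged 34.6%. Otx2 was thus widely detected outside cluster 4, and low in the cardiomyocyte-like cluster 2 and 4 others.

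Promoter sequence is given for 4 of these transcription regulators, because they were listed higher together in cluster 4 and differ in how far they are confined to it. The sequences are from RefSeq, build GRCm38.p6, 5′ to 3′ on the gene's strand, and cover up to 250 bases before the start, ending where an annotated exon begins. Capitals mark 3 motifs searched on both strands: TAATCC, the core bound by Otx-class homeodomains, TAATTA, the core shared by many homeodomains and equal to its own reverse complement, and CTTTGA, a core bound by the Wnt effectors TCF and LEF (its reverse complement reads TCAAAG).
Dbx1: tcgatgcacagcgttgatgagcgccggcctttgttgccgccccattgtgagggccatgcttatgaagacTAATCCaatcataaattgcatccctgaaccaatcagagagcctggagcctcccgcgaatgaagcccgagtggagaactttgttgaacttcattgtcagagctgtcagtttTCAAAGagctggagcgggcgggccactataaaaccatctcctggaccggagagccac
Otx2: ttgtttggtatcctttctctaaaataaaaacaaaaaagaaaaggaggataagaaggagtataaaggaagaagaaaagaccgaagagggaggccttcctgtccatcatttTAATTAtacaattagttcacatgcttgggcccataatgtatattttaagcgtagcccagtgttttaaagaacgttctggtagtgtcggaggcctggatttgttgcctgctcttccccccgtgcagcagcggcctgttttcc
Fezf2: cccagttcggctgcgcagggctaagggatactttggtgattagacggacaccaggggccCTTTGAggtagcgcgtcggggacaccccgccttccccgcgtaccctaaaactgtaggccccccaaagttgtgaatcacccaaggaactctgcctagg
Lmo1: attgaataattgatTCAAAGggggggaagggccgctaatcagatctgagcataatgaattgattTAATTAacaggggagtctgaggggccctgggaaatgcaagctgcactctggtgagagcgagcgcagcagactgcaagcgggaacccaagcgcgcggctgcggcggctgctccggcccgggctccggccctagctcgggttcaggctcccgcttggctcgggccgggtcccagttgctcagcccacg
The Dbx1 sequence lies at chr7:49636850-49637085, that of Otx2 at chr14:48667645-48667894, that of Fezf2 at chr14:12345960-12346115 and that of Lmo1 at chr7:109175208-109175457, all on the minus strand. Dbx1 holds TAATCC as printed and CTTTGA on the other strand. Otx2 and Lmo1 hold TAATTA, and Fezf2 and Lmo1 hold CTTTGA, on the other strand in Lmo1. Nkx2-1 also had a sequence of 250 bases, which holds none of the 3 motifs and is not printed.

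Of the 23 higher genes, 16 had entries in the promoter table, with 24 windows of 250 bases, some of which overlap because a gene can have several starts. TAATCC was in 5 of the 24 windows (20.8%), from Dbx1, Mest, 3632451O06Rik and another start of Otx2, and in 6.25% of all 32851 windows. TAATTA was in 4 windows (16.7%), all of Otx2 and Lmo1, against 4.84% of all windows. CTTTGA was in 5 windows (20.8%), of Dbx1, Dkk1, Fezf2, Lmo1 and Zfp503, against 13.8%. A match is a run of letters and was not tested as a binding site.

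Other genes of the forebrain list were absent from the entries of cluster 4. Rax and Lhx2, homeobox genes of the eye field, were listed for cluster 1 alone, where they were detected in 71.0% and 50.9% of cells per the authors' deposited table. Over the 14 clusters without an entry, cluster 4 included, they averaged 4.60% and 4.40%. Unless left out by p-value, Rax and Lhx2 in cluster 4 fell short in detection or fold, going by the smallest values the table holds. They were then detected in under 25.1% of cells or less than 0.50 from all other cells on the natural log scale. Foxd1, Irx1, Irx3, Lmo4, Tcf7l2 and Zic1 were likewise listed for other clusters and not for cluster 4. Of 25 midbrain, hindbrain and spinal cord genes, Wnt1 was the 1 in the authors' deposited table, listed for cluster 6 with detection in 31.0% of cells. The cells not counted in cluster 6 allow Wnt1 in at most 9.65% of cluster 4, a value worked out from the authors' deposited table.

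Among general neural progenitor genes, 8 of 27 were in the authors' deposited table, with 2 listed higher (25%) and 2 lower (25%) in cluster 4. Over all genes the shares were 1.92% and 2.42%. Sox2, a factor of neural stem cells and of pluripotent cells, was detected in 44.5% of cells inside and 16.5% outside and was 1.88-fold higher per the authors' deposited table. Clusters 1 and 6 listed it at 44.9% and 54.4% of cells per the authors' deposited table, so detection of Sox2 was close in clusters 4 and 1. The retinoic acid binding genes Crabp2 and Crabp1 lay in opposite directions. Crabp2 was detected in 49.0% of cells inside and 18.2% outside per the authors' deposited table. Crabp1 was detected in 4.4% inside and 30.9% outside and was 3.59-fold lower per the authors' deposited table. Clusters 0 and 7, which listed the mesoderm genes Cer1 and Tcf15 as higher, detected Crabp1 in 79.9% and 81.2% of cells per the authors' deposited table. Sfrp1, a secreted Wnt antagonist, was also lower, at 2.15-fold per the authors' deposited table.

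**Figure D2:**
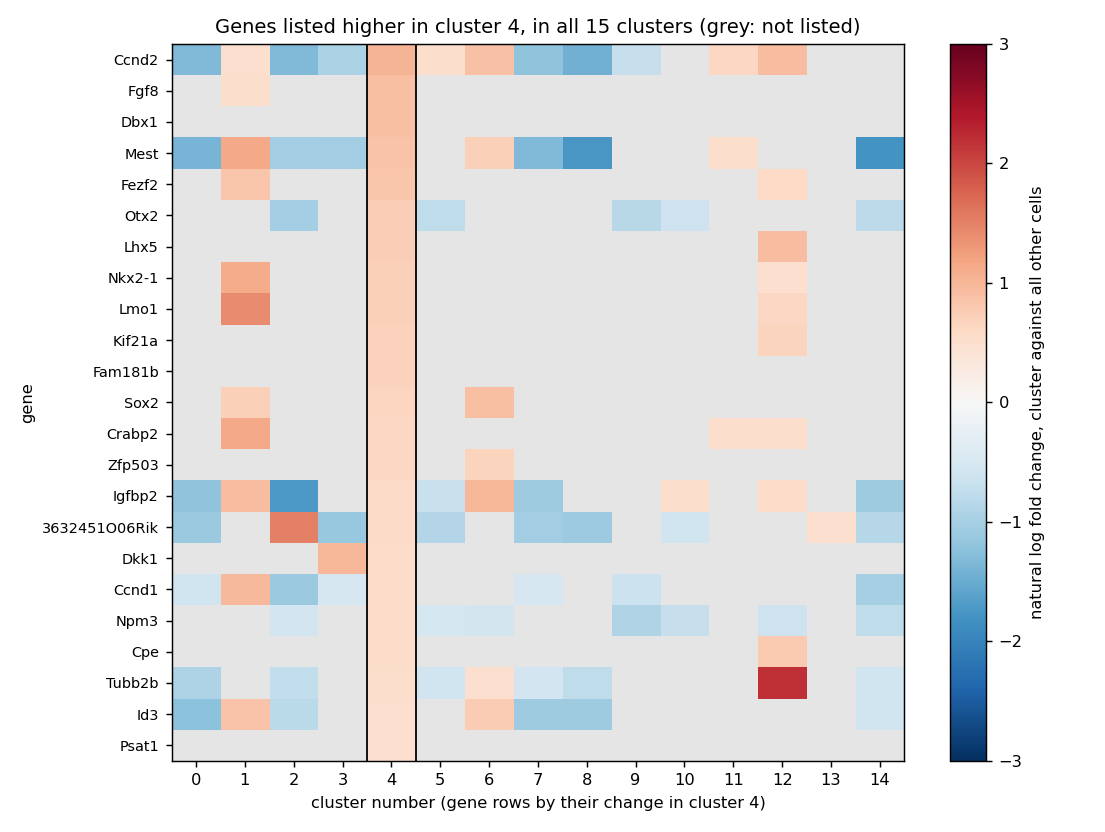
Natural log fold change of each cluster against all other cells (colour, -3 to 3) for the 23 genes listed higher in cluster 4 (rows) in the 15 clusters (columns); grey fields are not listed. Dbx1, Fam181b and Psat1 have an entry in cluster 4 alone, and the other entries listed higher fall mostly in clusters 1, 6 and 12.

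Signalling genes came next. Fgf8 was detected in 46.1% of cells inside and 17.6% outside and was 2.49-fold higher per the authors' deposited table. Cluster 1 was the other cluster that listed Fgf8, at 36.9% of cells per the authors' deposited table, and its level was 1.43-fold higher in cluster 4 than in cluster 1. The 13 clusters without an entry averaged 14.3%, so Fgf8 was detected in many cells elsewhere, and 19.8% of the cells with Fgf8 lay in cluster 4. It was the 1 gene of the FGF list in cluster 4, out of 5 in the table. Fgf5 and Fgf10, other ligands, Dusp4, a phosphatase induced by the pathway, and Flrt3, a membrane partner of FGF receptors, were listed for other clusters. The feedback genes Spry1, Spry2, Spry4, Dusp6, Etv4 and Etv5 had no entry in any cluster.

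Fgf8 is also a gene of the primitive streak. T, the brachyury factor of the streak, was listed for cluster 3 alone, at 78.2% of cells per the authors' deposited table, and averaged 3.00% over the clusters without an entry. Cer1 and Tcf15 could be detected in at most 9.63% and 21.8% of cells of cluster 4, a value worked out from the authors' deposited table. Ifitm1, a membrane protein gene induced by interferon and active in early mesoderm, was detected in 9.7% of cells inside and 33.8% outside per the authors' deposited table. Of 12 streak and nascent mesoderm genes in the table, Fgf8 was listed higher and Ifitm1 lower in cluster 4.

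The Wnt antagonist gene Dkk1 was detected in 33.0% of cells inside and 11.3% outside and was 1.75-fold higher per the authors' deposited table. Cluster 3 listed it too, with 33.3% of cells, and at a 1.39-fold higher level than cluster 4. Of the 8 Wnt genes in the table, Dkk1 was listed higher and Sfrp1 lower in cluster 4. Id3, an inhibitor of differentiation and a target of BMP signalling, was detected in 81.7% of cells inside and 55.5% outside per the authors' deposited table, at 1.66-fold. Clusters 1 and 6 listed Id3 higher too, in 88.1% and 88.5% of cells per the authors' deposited table. Its level there was 1.27-fold and 1.24-fold above that in cluster 4. The related genes Id1 and Id2 and the ligand Bmp4 were listed higher in cluster 1 and had no entry in cluster 4. Of 10 BMP, TGF-beta and Nodal genes in the table, Id3 was the 1 listed for cluster 4. No Notch gene was listed for it out of 2 in the table, and Shh and Foxa2 were not listed for it either.

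The gene with the highest fold in cluster 4 was Ccnd2. Ccnd2, a D-type cyclin that drives cells out of G1, was detected in 86.2% of cells inside and 38.6% outside and was 2.75-fold higher per the authors' deposited table. It was listed for 12 of the 15 clusters. Clusters 1, 5, 6, 11 and 12 listed it higher, with detection in 73.1%, 65.3%, 82.8%, 92.5% and 70.6% of cells per the authors' deposited table. Another 6 clusters listed it lower, clusters 8 and 2 among them with 10.3% and 12.6% per the authors' deposited table. The level in cluster 4 was within 1.03-fold of that in cluster 12 and 1.56-fold above that in cluster 1. Ccnd2 thus divided the clusters and was not confined to cluster 4, where 17.4% of the cells with Ccnd2 lay.

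Ccnd1, the related cyclin, was detected in 60.0% of cells inside and 31.8% outside and was 1.74-fold higher per the authors' deposited table. Its level was 1.32-fold higher in cluster 1 than in cluster 4. These were the 2 of 13 G1 and S phase genes in the table that were listed for cluster 4 (15.4%, against 1.92% of all genes listed higher). None of 17 G2 and M phase genes in the table, Top2a, Mki67 and Ccnb1 among them, was listed for it in either direction. Of 7 cell cycle inhibitor and quiescence genes in the table, 0 were listed. Both counts are near the shares over all genes, and nothing is read from them. Cdkn1c, an imprinted cyclin-dependent kinase inhibitor gene, was higher in clusters 1 and 12, by 4.22-fold and 2.41-fold, per the authors' deposited table and had no entry in cluster 4.

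The imprinted genes Mest and Igf2 lay in opposite directions. Mest, a hydrolase-like gene expressed from the paternal allele, was detected in 93.7% of cells inside and 55.3% outside and was 2.36-fold higher per the authors' deposited table. Clusters 1 and 6 detected it in 95.7% and 92.1% of cells per the authors' deposited table. Igf2, a fetal growth factor gene, was detected in 34.2% of cells inside and 51.1% outside and was 1.97-fold lower per the authors' deposited table. Of 13 imprinted genes in the table, these were the 2 listed for cluster 4. Igfbp2, which encodes a binding protein of insulin-like growth factors, was higher, with detection in 82.9% of cells inside and 51.4% outside per the authors' deposited table. Clusters 1, 6, 10 and 12 also listed Igfbp2 higher, in 88.7%, 91.1%, 79.0% and 83.0% of cells per the authors' deposited table. Its level was 1.24-fold and 1.42-fold higher in clusters 1 and 6 than in cluster 4.

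The remaining higher genes were Kif21a, Fam181b, Zfp503, Npm3, Cpe, Tubb2b, Psat1 and 3632451O06Rik (current symbol Armh4). Kif21a, a kinesin motor gene, Cpe, a carboxypeptidase gene of prohormone processing, and Tubb2b, a beta tubulin of developing neurons, were also listed higher in the neuron-like cluster 12. Tubb2b was detected in 53.9% of cells of cluster 4 and 87.3% of cluster 12 per the authors' deposited table, and its level was 5.01-fold higher in cluster 12. Cluster 6 listed Tubb2b higher as well, in 52.4% of cells per the authors' deposited table, and its level was 1.01-fold higher in cluster 4 than there. Of 15 neuron genes in the table, Tubb3, Stmn2 and Elavl3 among them, 0 were listed for cluster 4. Elavl3 could be detected in at most 7.998% of its cells, a value worked out from the authors' deposited table. Fam181b was detected in 27.6% of cells inside and 5.1% outside, and Zfp503, a zinc finger repressor gene, in 30.9% and 7.8%, per the authors' deposited table. Cluster 6 listed Zfp503 higher too, with 32.6% of cells per the authors' deposited table. Psat1, an enzyme gene of serine synthesis, was detected in 32.2% inside and 15.1% outside per the authors' deposited table, with a natural log fold change of 0.51, just above the lowest in the table.

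Npm3, a nucleolar chaperone gene, was higher in cluster 4 than in clusters 6 and 12. It was detected in 71.2% of cells inside and 52.2% outside and was 1.74-fold higher per the authors' deposited table. Clusters 6 and 12 listed it lower, with detection in 36.0% and 29.1% of cells per the authors' deposited table, so that its level was 2.77-fold and 3.02-fold higher in cluster 4. Cluster 1 did not list it, and the 7 clusters without an entry averaged 65.7%. It was the 1 of 18 nucleolar, ribosome biogenesis and chaperone genes in the table that was listed for cluster 4 (5.56%, against 1.92% of all genes).

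All 29 genes listed lower in cluster 4 were listed higher in at least 1 other cluster. Krt8, a keratin of simple epithelia, was detected in 6.1% of cells inside and 32.5% outside and was 3.96-fold lower per the authors' deposited table. Its partner Krt18 was detected in 15.8% and 36.7% and was 2.56-fold lower per the authors' deposited table. Cluster 3 detected Krt8 in 93.0% of cells and Krt18 in 91.2% per the authors' deposited table. These were the 2 of 9 epithelial genes in the table listed for cluster 4 (22.2%, against 2.42% of all genes listed lower). The adhesion genes Epcam and Cdh1 were not listed for it.

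Tpm1, a tropomyosin, was 3.64-fold lower per the authors' deposited table, with detection in 43.5% of cells inside and 64.8% outside. The light chain genes Myl9 and Myl6 were 3.16-fold and 2.54-fold lower per the authors' deposited table. Actin and muscle adaptor genes Csrp1, Csrp2, Cnn2, Dstn and Tagln2 were lower by 1.66-fold to 2.05-fold per the authors' deposited table. Of 25 cardiac genes in the table Tpm1 was the 1 listed, and Actc1, Myl7 and Tnnt2 had no entry in cluster 4. Among mesenchymal genes, 1 of 19 was listed, the galectin gene Lgals1 at 2.17-fold lower per the authors' deposited table. Vcan, a matrix proteoglycan gene, was detected in 10.1% of cells inside and 29.5% outside per the authors' deposited table.

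Many of these lower values depended on the cardiomyocyte-like cluster 2 in the reference. Cluster 2 listed 14 of the 29 genes as higher. Its entries were many, with 272 of the 1197 genes listed as higher and 308 as lower. Cluster 2 was then taken out of the reference, which can move only the genes it lists. Of the 19 lower genes that it lists, 7 were still at least 0.5 lower on the natural log scale and 12 were not. The other 10 have no entry in cluster 2 and kept their deposited values. Tpm1 moved from -1.29 to -0.45, Gpx3, a secreted glutathione peroxidase gene, from -1.26 to -0.32, and Myl9 from -1.15 to 0.040. Gyg, which encodes the primer of glycogen synthesis, moved from -1.02 to 0.25, and its detection outside from 29.0% to 17.9%, against 30.4% inside. Gyg was also the 1 gene of the 52 whose adjusted p-value over cells, 1 per the authors' deposited table, was not under 0.05. Crabp1 and Ifitm1, which cluster 2 lists as lower, were at -1.38 and -1.14. Of the 9 higher genes that cluster 2 lists, 4 were still past 0.5, while Igfbp2, Ccnd1, Npm3, Tubb2b and Id3 lay between 0.43 and 0.49.

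**Figure D3:**
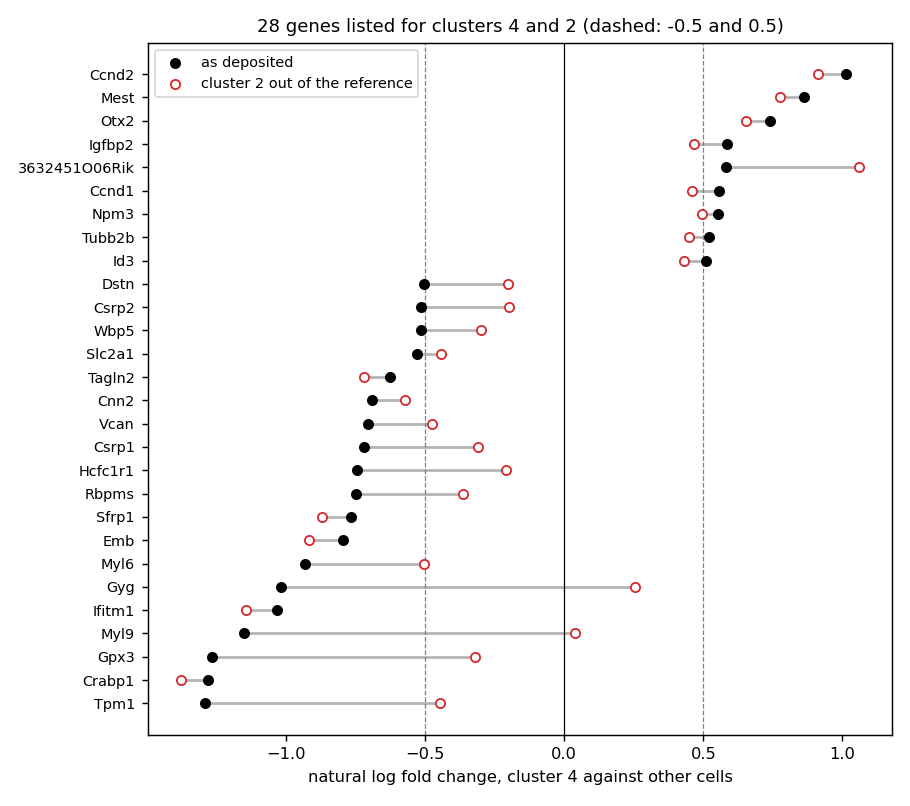
Natural log fold change of cluster 4 against other cells as deposited (filled points) and with cluster 2 taken out of the reference (open points), for the 28 genes listed for both clusters; dashed lines mark -0.5 and 0.5. Gyg and Myl9 cross 0, Gpx3 and Tpm1 move to -0.32 and -0.45, and 3632451O06Rik moves from 0.58 to 1.06.

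The lower genes also varied along other clusters. Of those below, Gpx3, Rbpms, Hcfc1r1, Wbp5 and Slc2a1 had their highest listed level in cluster 2. With that cluster out of the reference, all of these were less than 0.5 lower on the natural log scale. Gpx3 was detected in 13.8% of cells inside and 36.3% outside per the authors' deposited table. Emb, a transmembrane glycoprotein gene, was 2.21-fold lower with detection of 47.1% inside and 54.0% outside per the authors' deposited table, and was 1.62 higher on the natural log scale in cluster 3. Clu, the extracellular chaperone clusterin, was detected in 8.7% of cells inside and 25.1% outside, and in 55.5% of cluster 0, per the authors' deposited table. Apoe, S100a10, Ppp1r1a, Rbpms, Hcfc1r1 and Wbp5 were lower by 1.67-fold to 2.11-fold per the authors' deposited table. The glucose transporter gene Slc2a1 and the chaperone gene Hsp90b1, the 1 listed of 19 glycolysis and of 9 stress genes in the table, were each 1.70-fold lower per the authors' deposited table. Of 10 mitochondrially encoded genes in the table mt-Rnr2, the large ribosomal RNA, was the 1 listed, at 33.0% of cells inside and 54.7% outside per the authors' deposited table. None of 13 chromatin and BAF complex genes, 10 pluripotency genes, 2 neural crest genes or 2 endothelial and blood genes in the table was listed for cluster 4.

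**Figure D4:**
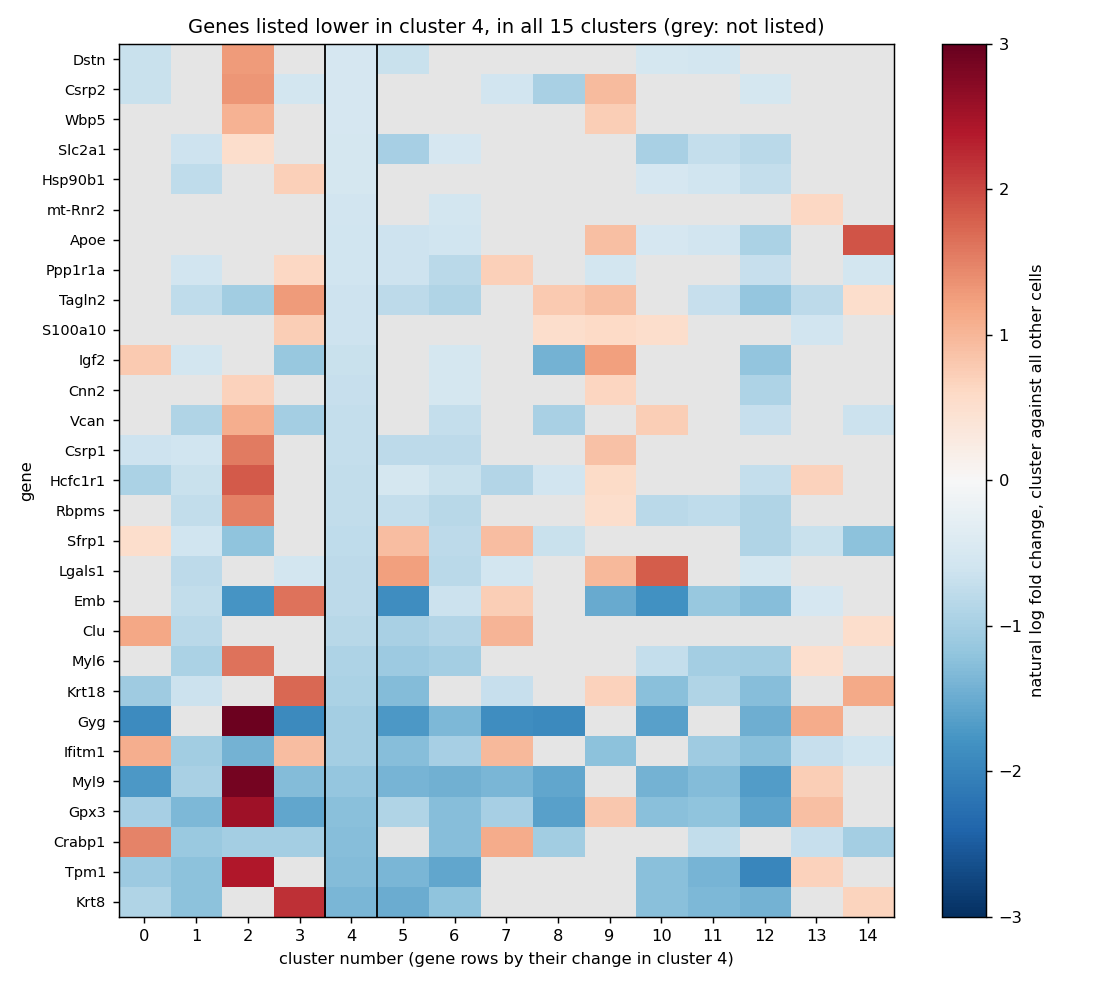
Natural log fold change of each cluster against all other cells (colour, -3 to 3) for the 29 genes listed lower in cluster 4 (rows) in the 15 clusters (columns); grey fields are not listed. The highest values of Gyg, Myl9, Gpx3 and Tpm1 are in cluster 2 and those of Krt8, Krt18 and Emb in cluster 3, and clusters 1, 6 and 12 list many of the same genes as lower.

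Cluster 4 was then set beside clusters that listed many of the same genes in the same direction. Every cluster was set against nearly the same reference cells, so the counts below describe the entries and are no test of likeness. Of the 52 genes, cluster 1 listed 32, all in the same direction as cluster 4. Over all 1197 genes, cluster 1 listed 3.93% as higher and 2.59% as lower. The 11 genes higher in both were 47.8% of those of cluster 4 and 23.4% of those of cluster 1, and the 21 lower in both were 72.4% and 67.7%. Cluster 12 shared 10 higher genes (43.5% and 10.8%) and 22 lower ones (75.9% and 47.8%), and listed Npm3 in the opposite direction. It listed 7.77% of all genes as higher and 3.84% as lower. Cluster 6 shared 7 higher genes (30.4% and 23.3%) and 23 lower ones (79.3% and 88.5%), again with Npm3 opposite, and listed 2.51% and 2.17% of all genes. The small cluster 11 shared 3 higher genes (13.04% and 30%), Ccnd2, Mest and Crabp2, and 15 lower ones (51.7% and 78.9%), and listed 0.835% and 1.59% of all genes. Cluster 5, which listed the collagen genes Col1a1 and Col3a1 higher, shared 18 lower genes (62.1% and 35.3%) and 1 higher gene, Ccnd2. It listed 5 higher genes of cluster 4 as lower and 2 lower ones as higher. In all, cluster 5 listed 49 of the 1197 genes as higher and 51 as lower.

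Levels were compared as the natural log of a cluster's mean over the mean of all cells, and called different from 0.5 on. No gene of the 32 shared with cluster 1 differed by that much, and the largest gap was 0.44. The genes nearest the bound lay in both directions, with Ccnd2 0.44 and Fgf8 0.35 higher in cluster 4 and Lmo1 0.43 and Crabp2 0.33 higher in cluster 1. Fezf2 and Sox2 were 0.06 and -0.03 apart, cluster 4 minus cluster 1. In cluster 6, 30 of 31 shared genes lay within 0.5, the exception being Npm3. In cluster 12, 26 of 33 lay within it. Tubb2b was higher in cluster 12, and Npm3, Tpm1, Myl9, Tagln2, Igf2 and Emb were higher in cluster 4. A gene had to pass the same fold in both clusters to be compared, which narrows the gaps that can be seen. Genes listed for only 1 of the clusters, such as Rax and Lhx2, were not compared in this way.

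**Figure D5:**
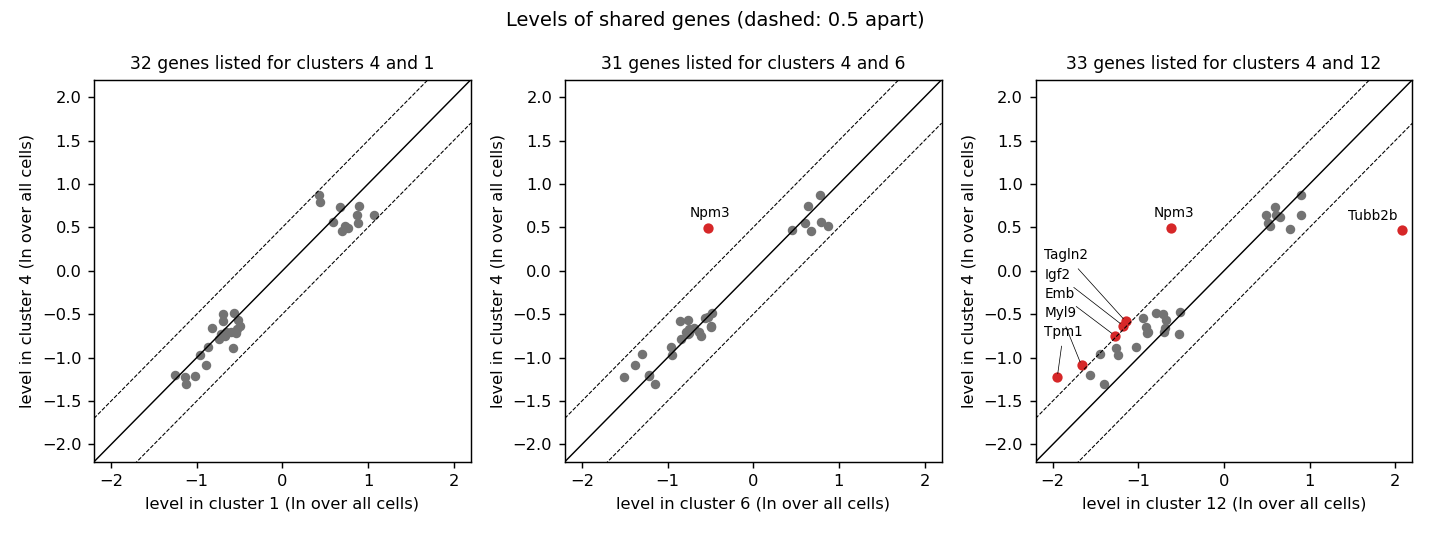
Level in cluster 4 (vertical axis) against the level in cluster 1, 6 or 12 (horizontal axis), each as the natural log over the mean of all cells, for the 32, 31 and 33 genes listed for both; the solid line is equality and the dashed lines lie 0.5 from it. Red points lie 0.5 or more from equality: 0 genes for cluster 1, Npm3 for cluster 6, and 7 genes for cluster 12, with Tubb2b higher in cluster 12.

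The epiblast-like cluster 8 differed more. Of the 52 genes it listed 16, with 0 higher in both and 9 lower in both, against 5.51% and 4.26% of all genes listed higher and lower, and 9 of the 16 differed by at least 0.5. Mest was detected in 93.7% of cells of cluster 4 and 21.2% of cluster 8 per the authors' deposited table, and its level was 11.5-fold higher in cluster 4. Between the same clusters, Ccnd2 was 9.53-fold and Id3 4.42-fold higher in cluster 4. Tagln2 and S100a10 were 3.68-fold and 2.89-fold higher in cluster 8. Pou5f1, the core pluripotency factor, could be detected in at most 22.1% of cells of cluster 4, a value worked out from the authors' deposited table, and Utf1 in at most 7.64%.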

How the data were processed

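Single cells of 4 mouse libraries were profiled by 10x droplet sequencing, with Cell Ranger, Seurat and the mm9 build named for processing, per the submitters' processing notes. The sources used here give no versions, no cell filters and no list of the libraries behind the clusters. The authors deposited 1 table of marker genes, each entry setting a cluster against all other cells. Its fold changes are taken as natural log values: the authors' deposited fold changes of 4 genes listed for nearly all clusters fitted the natural base in 4 of 4, base 2 in 1 and base 10 in 0. They are means plus a constant that is not given, so folds of weak genes may be understated. The authors' deposited fraction of detecting cells is shown in percent. Cells are not replicates, so the authors' deposited p-values served only as a filter in 1 alternative.

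Cluster sizes were solved by least squares from 407 genes listed for 2 or more clusters (residual SD 0.0228 percentage points). Detection and levels in other clusters follow from these sizes. Values given as at most rest on rounded detection fractions and are approximate. Steps were tested on simulated data. Named genes were the 6 given markers, the 15 highest and 10 lowest of cluster 4 and all listed members of 27 gene lists, without predicted genes and clones. 3632451O06Rik and the other genes were named after their values were seen. Members and lists were chosen with earlier results of these data known. Promoters came from RefSeq (GRCm38.p6), trimmed at GENCODE exons of that build, and no coordinates of mm9 were used. The tools were matplotlib 3.10.9, scipy 1.17.1, numpy 2.4.6, pandas 2.3.3 and Python 3.11.15. Some marker genes are not reported here.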

Additional observations from a re-analysis of the deposited data

How the results depend on the processing

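No paired analysis was possible because the deposited table has no column of libraries and each group is 1 library. The relative size of cluster 4 moved by less than the residual SD of 0.0228 percentage points under the other ways of solving it. Of the 23 higher and 29 lower genes, 11 and 17 passed ln 2 on the natural log scale, 1 and 7 passed 1, and 5 and 1 were listed that way in no other cluster. The lower count was 12 with detection differing by at least 20 percentage points and 17 with cluster 2 out of the reference, where Gyg (0.25) and Myl9 (0.040) changed sign. The count of 17 includes 10 genes that cluster 2 does not list and whose values could not move. In an alternative chosen after seeing the data, taking out each of the other 13 clusters in turn left 18 to 23 higher and 26 to 29 lower genes, where genes without an entry in the removed cluster again kept their values. With a bound of 0.25 in place of 0.5, 6 genes differed between clusters 4 and 1 and 6 between clusters 4 and 6. All 6 forebrain list genes passed ln 2 and the detection alternative, while Sox2 and Crabp2 did not pass ln 2. Depth per cluster is unknown, and its part in the detection shares was not tested.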

Other observations

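Detection and mean level did not always move together in cluster 4. Gyg was detected in 30.4% of cells inside and 29.0% outside while its mean was 2.77-fold lower per the authors' deposited table, and cluster 2 detected it in 98.1% of cells. For Emb, detection differed by -6.9 percentage points while the fold was 2.21. Over the 29 lower genes the median difference in detection was -17.8 percentage points, and over the 23 higher genes it was 28.2.

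The gene 3632451O06Rik, chosen after its values were seen, was detected in 57.9% of cells of cluster 4 and 23.3% of other cells per the authors' deposited table. It was higher in cluster 2 as well, and with that cluster out of the reference its natural log fold change in cluster 4 was 1.06, against 0.91 for Ccnd2. Clusters 0, 3, 5, 7 and 8 detected it in 2.9% to 6.5% of cells per the authors' deposited table.

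Wbp5 was the 1 gene listed lower in cluster 4 and in no other cluster, with detection of 62.0% inside and 75.9% outside per the authors' deposited table. It was listed higher in clusters 2 and 9, and its natural log fold change was -0.30 with cluster 2 out of the reference.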
